A study of Oryza sativa with 6 samples.

Results

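CESA1 (LOC4337958), CESA4 (LOC4324625), CESA5 (LOC4334710), CESA7 (LOC4348853) and CESA8 (LOC4342699) encode cellulose synthase catalytic subunits of rice (Oryza sativa). They were followed through every probe set that the array annotation assigns to one of them, which gave 7 probe sets for these 5 of 17905 annotated genes, out of 57194 probe sets other than controls. All 7 passed the filter on dim probe sets, which kept 40466. The genes were singled out with their low values in the RNAi plants already known. The comparison used to choose them is not stated, and RNAi against wild type was taken as the one used. Their differences in that comparison, and between overexpression and RNAi, are therefore given as a description without a test.

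The 6 one-colour Affymetrix arrays came from untreated seedlings at the 4-leaf stage, grown at 28 °C, with 2 biological replicates per group. One group was rice overexpressing OsUBA. A second carried an RNA interference construct against OsUBA, here called RNAi, in which double-stranded RNA is used to lower a matching transcript. The third was wild-type rice of cultivar Nipponbare; the labels name no cultivar for the transgenic plants. The labels name neither the promoters of the constructs, the number of independent lines, the locus of OsUBA nor a transformed control without an OsUBA construct, so effects of OsUBA and of transformation cannot be told apart, and the OsUBA transcript itself was not checked here.

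Cellulose is made at the plasma membrane by complexes that assemble from different CESA proteins, each of which adds glucose from UDP-glucose to a growing chain. In rice, CESA1, CESA5 and CESA8 belong to the subunits of the primary wall, laid down while cells still grow. CESA4 and CESA7, together with CESA9, form the complex of the secondary wall, which thickens xylem vessels and fibres after growth has ended, and mutants of these genes have brittle culms. Whole seedlings hold both kinds of wall, and on bulk RNA fewer cells of a type and less RNA per cell cannot be told apart.

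Values are the deposited log2 values, group levels are means ± SD (n = 2), and log2 changes are limma estimates ± SE from 1 model of all 6 arrays in which the prior spread follows brightness. A probe set was called where its Benjamini-Hochberg adjusted p over the 40466 kept probe sets was under 0.05. Signals of different probe sets are not on a common scale, so levels are compared between arrays and never between genes. Array medians lay between 5.67 and 5.92, and arrays correlated at 0.905 to 0.906 within a group and at 0.871 to 0.907 between groups, across probe sets. With so few arrays each value is known only roughly. The labelled tissue was checked with green-tissue markers: the summed signal of RBCS, RCA and CAB2R was log2 16.95 and 17.06 in overexpression, 17.10 and 17.24 in RNAi, and 17.23 and 17.07 in wild type.

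All 7 probe sets were highest in overexpression, intermediate in wild type and lowest in RNAi, with no overlap between any groups. Among all kept probe sets, 4.42% had this order without overlap. The low RNAi values were known when the genes were chosen, so nothing is read from this count beside that share. Against wild type, the log2 changes of the 4 primary-wall probe sets were 1.15 to 1.82 in overexpression and -2.58 to -1.93 in RNAi. Those of the 3 secondary-wall probe sets were 0.53 to 0.76 in overexpression and -4.68 to -3.11 in RNAi.

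**Figure D1:**
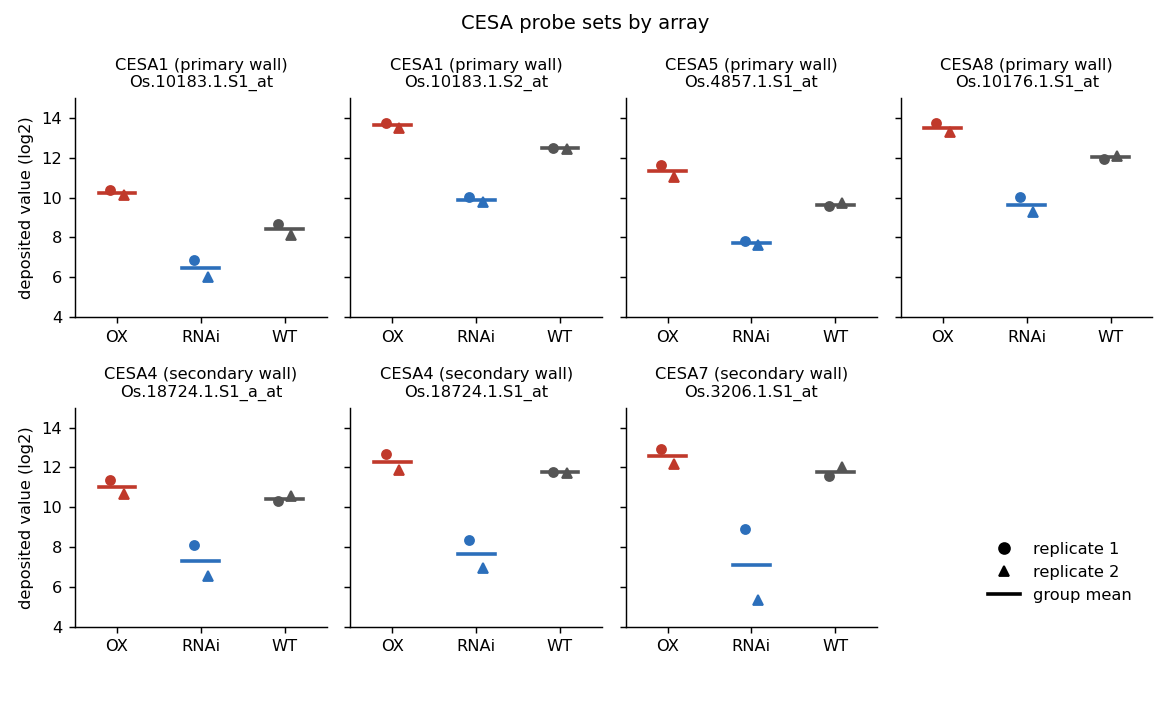
Deposited log2 value of each CESA probe set on each array (vertical axis), by group: OX, overexpression; RNAi; WT, wild type. Circles are replicate 1, triangles replicate 2 and bars group means; in every panel both OX points lie above both WT points and both RNAi points below them, and the RNAi points of CESA7 lie farthest apart, at 8.90 and 5.33.

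Of the primary-wall members, CESA1 is read by a pair of probe sets. The brighter one, S2_at, had 13.75 and 13.50 in overexpression (replicates 1 and 2), 10.01 and 9.79 in RNAi, and 12.50 and 12.45 in wild type. Replicates differed by at most 0.25, well under the distance between any groups. The dimmer one, S1_at, had 10.36 and 10.11 in overexpression, 6.88 and 6.01 in RNAi, and 8.69 and 8.13 in wild type. The groups stood in the same order in both, with more spread in the dimmer one.

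CESA8, which like CESA1 is a primary-wall subunit, had 13.72 and 13.28 in overexpression, 10.05 and 9.25 in RNAi, and 11.95 and 12.11 in wild type. Its RNAi arrays were 0.80 apart, more than its arrays in either other group. CESA5, another primary-wall subunit, had 11.64 and 11.01 in overexpression, 7.83 and 7.61 in RNAi, and 9.58 and 9.72 in wild type. In CESA5 the overexpression pair was the most spread one.

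Of the secondary-wall members, CESA4 is also read by a pair of probe sets. The brighter one, S1_at, had 12.65 and 11.89 in overexpression, 8.38 and 6.93 in RNAi, and 11.77 and 11.72 in wild type. The dimmer one, S1_a_at, had 11.35 and 10.67 in overexpression, 8.10 and 6.54 in RNAi, and 10.31 and 10.56 in wild type. In both, replicate 2 of overexpression lay only just above the higher wild-type array, while both RNAi arrays lay far below the wild-type ones.

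CESA7, the other secondary-wall member, had 12.91 and 12.19 in overexpression, 8.90 and 5.33 in RNAi, and 11.58 and 12.01 in wild type. Its RNAi arrays were 3.56 apart, farther than any other pair of replicates among the 7 probe sets. RNAi replicate 2 was close to the filter's floor of log2 5, below which differences between arrays were not interpreted.

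In plants overexpressing OsUBA, CESA1 was 2.23-fold above wild type in its brighter probe set, which passed the test. CESA5, CESA8 and the dimmer CESA1 probe set were 2.78-fold to 3.53-fold above wild type without passing, and CESA4 and CESA7 were 1.44-fold to 1.69-fold above it without passing. This test shares the wild-type arrays with the RNAi comparison, which was taken as used to choose the genes. The overexpression values may also have entered that choice, so the p values and counts given here are not independent support. The brighter CESA1 probe set averaged 13.63 ± 0.18 in overexpression and 12.48 ± 0.04 in wild type (log2 change 1.15 ± 0.17, limma adjusted p = 0.0455, higher in 2 of 2 arrays). Thus 1 of 7 probe sets was called higher, against 0.346% of all kept probe sets, and 4 of 7, all of the primary wall, had an unadjusted p under 0.05 with a higher level, against 5.29% of all. Both arrays of overexpression lay above both wild-type arrays in 7 of 7, against 17.3% of all. With a prior spread that does not follow brightness, limma called 0 of 7 (4 of 7 at an unadjusted p under 0.05) and 0% of all probe sets.

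The call of CESA1 lies near the threshold and ended under 9 of 14 alternative settings, with limma adjusted p values between 0.0303 and 0.441 over all of them. It passed in 2 of the 6 fits that leave out 1 array, those without either RNAi array, at adjusted p values of 0.0419 and 0.0453. It ended without wild-type replicates 1 and 2 (adjusted p = 0.279 and 0.256) and without overexpression replicates 1 and 2 (adjusted p = 0.441 and 0.114).

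CESA5 averaged 11.32 ± 0.45 in overexpression and 9.65 ± 0.10 in wild type (3.20-fold, log2 change 1.68 ± 0.26, limma adjusted p = 0.0535). CESA8 averaged 13.50 ± 0.31 in overexpression and 12.03 ± 0.11 in wild type (2.78-fold, log2 change 1.47 ± 0.28, limma adjusted p = 0.110). The dimmer CESA1 probe set had a log2 change of 1.82 ± 0.36 (limma adjusted p = 0.125). These 3 missed the adjusted threshold with folds as large as, or larger than, that of the probe set that passed, and their unadjusted p values were 0.000208, 0.000814 and 0.00106 in the same limma fit.

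The secondary-wall members had smaller and less certain differences. CESA4 had log2 changes of 0.53 ± 0.45 in its brighter and 0.58 ± 0.48 in its dimmer probe set (limma adjusted p = 0.729 and 0.720), with 95% intervals of -0.52 to 1.57 and -0.53 to 1.68. CESA7 had a log2 change of 0.76 ± 0.95 (limma adjusted p = 0.820), with an interval of -1.44 to 2.95. These intervals hold no change and also the smaller primary-wall changes, such as the 1.15 of the brighter CESA1 probe set. They also overlap the interval of the largest primary-wall change, 0.99 to 2.65 around the 1.82 of the dimmer CESA1 probe set. The intervals thus do not separate the classes. The fit shares 1 estimate of the spread over all groups, and in the secondary-wall members the RNAi pair had the largest SD.

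**Figure D2:**
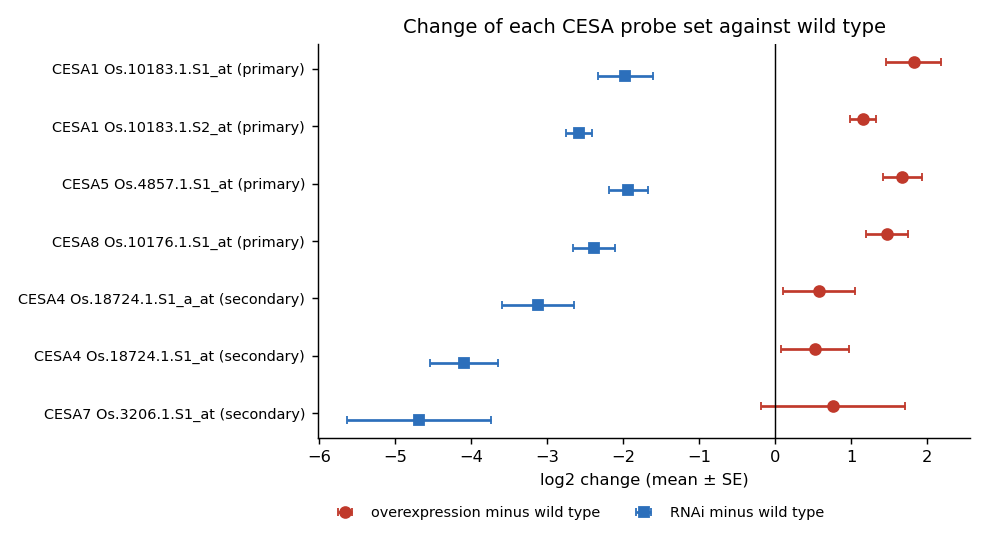
Log2 change against wild type (horizontal axis, mean ± SE from the limma fit of all 6 arrays) for each CESA probe set, with overexpression as circles and RNAi as squares. The 4 primary-wall probe sets lie at 1.15 to 1.82 and at -2.58 to -1.93, the 3 secondary-wall probe sets at 0.53 to 0.76 and at -4.68 to -3.11.

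In RNAi plants all 5 genes were lower than in wild type, the secondary-wall genes by larger folds than the primary-wall genes. CESA1 was 5.96-fold lower in its brighter probe set (log2 change -2.58 ± 0.17) and 3.91-fold lower in its dimmer one (-1.97 ± 0.36). CESA8 was 5.20-fold lower (-2.38 ± 0.28) and CESA5 3.81-fold lower (-1.93 ± 0.26). For the secondary wall, CESA4 was 17.0-fold lower in its brighter probe set (-4.09 ± 0.45) and 8.66-fold lower in its dimmer one (-3.11 ± 0.48), and CESA7 25.6-fold lower (-4.68 ± 0.95). Of the 7 probe sets 5 were called lower, where 0.583% of all kept probe sets were called lower, and 7 of 7 had both RNAi arrays below both wild-type arrays, as had 20.9% of all. With a prior spread that does not follow brightness, limma called 0 of 7 (7 of 7 at an unadjusted p under 0.05) and 0.00247% of all. This comparison was taken as the one used to choose the genes, so nothing is read from these counts. The probe sets not called were that of CESA7, the one with the largest fold and the largest spread, and the dimmer one of CESA1.

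The size of the secondary-wall differences moved with the RNAi array that was left out. Without RNAi replicate 1 the fold of CESA7 was 88.0 and without RNAi replicate 2 it was 7.45. The folds of CESA4 were 28.2 and 10.3 in the brighter probe set and 14.9 and 5.04 in the dimmer one, without RNAi replicates 1 and 2. The primary-wall folds moved less, for example to 6.44 and 5.52 in the brighter CESA1 probe set and to 6.86 and 3.94 in CESA8. Without RNAi replicate 2 the order of the classes thus did not hold in all probe sets. The fold of the dimmer CESA4 probe set, 5.04, was then below the 5.52 of the brighter CESA1 probe set.

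Set directly against each other, overexpression and RNAi differed by nearly equal amounts in the primary-wall probe sets. Overexpression was 13.3-fold and 13.8-fold above RNAi in the brighter and the dimmer CESA1 probe set, 12.2-fold in CESA5 and 14.4-fold in CESA8. The secondary-wall differences were 24.5-fold and 12.9-fold in the brighter and the dimmer CESA4 probe set and 43.2-fold in CESA7. All 7 probe sets were called higher in overexpression, where 3.31% of all kept probe sets were, and both groups were clear of each other in 7 of 7, against 22.3% of all. With a prior spread that does not follow brightness, limma called 0 of 7 (7 of 7 at an unadjusted p under 0.05) and 0.0124% of all. This comparison shares the RNAi arrays with the one the genes were chosen on. Without RNAi replicates 1 and 2 the fold of CESA7 was 149 and 12.6, that of the brighter CESA4 probe set 40.6 and 14.8, and that of the dimmer one 22.2 and 7.52. The call of CESA7 ended when any overexpression or wild-type array was left out, and that of the dimmer CESA4 probe set without overexpression replicate 1.

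The step from wild type to RNAi was larger than that from wild type to overexpression in all 7 probe sets, though by less than its SE in CESA5 and the dimmer CESA1 probe set. In log2 units the excess of the step to RNAi over that to overexpression was 0.15 ± 0.62 and 1.42 ± 0.29 in the CESA1 probe sets (dimmer and brighter), 0.25 ± 0.44 in CESA5 and 0.90 ± 0.48 in CESA8. In CESA4 it was 3.56 ± 0.78 and 2.54 ± 0.82 (brighter and dimmer), and in CESA7 it was 3.92 ± 1.64. The values of the primary-wall and the secondary-wall probe sets do not overlap. When RNAi replicate 2, the lower of its pair in all 7, was left out, the excess was -0.29 to 1.31 in the primary-wall probe sets and 1.76 to 2.84 in the secondary-wall ones.

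The classes were also compared array by array, with the brightest probe set of each gene. The mean log2 value of the secondary-wall members minus that of the primary-wall members was -0.26 and -0.56 in overexpression, -0.66 and -2.75 in RNAi, and 0.33 and 0.44 in wild type. The size of this difference depends on the probes, and only its movement between arrays has a meaning. It was lower on all 4 transgenic arrays than on both wild-type arrays. Against wild type it moved by -0.79 in overexpression and by -2.09 in RNAi, at a pooled SD between replicates of 0.87, to which the RNAi pair contributed most (SD 1.48, against 0.21 in overexpression and 0.08 in wild type). Thus in overexpression the primary-wall mean was 1.43 above wild type and the secondary-wall mean 0.64 above it, and in RNAi the primary-wall mean was 2.29 below and the secondary-wall mean 4.38 below it. With 2 arrays per group an exact two-sided permutation test cannot give a p under 0.333, and none was used.

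**Figure D3:**
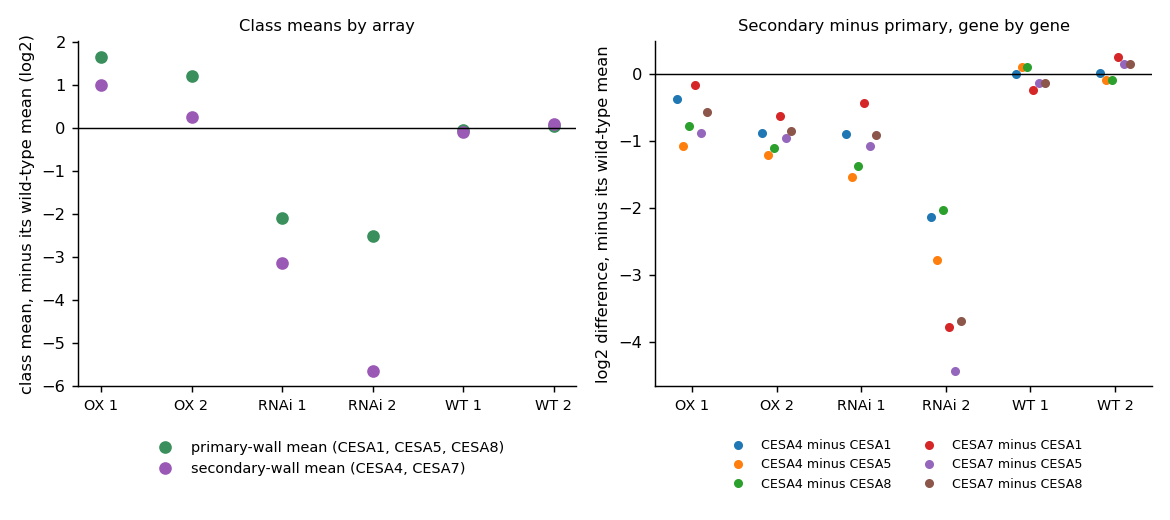
Left, the mean log2 value of the primary-wall members (CESA1, CESA5, CESA8) and of the secondary-wall members (CESA4, CESA7) on each array, minus the wild-type mean of the class. Right, the log2 difference of each secondary-wall and primary-wall gene pairing on each array, minus its wild-type mean; the lowest points are those of RNAi 2, and the pairings on the overexpression arrays and on RNAi 1 also lie below 0.

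Taken gene by gene, 6 pairings of a secondary-wall with a primary-wall member can be formed, which share genes and are not independent. The difference moved by -1.51 to -2.75 in RNAi against wild type, and both RNAi arrays lay below both wild-type arrays in 6 of 6 pairings. In overexpression against wild type it moved by -0.40 to -1.15, and both arrays lay below both wild-type arrays in 5 of 6. The exception was CESA7 with CESA1. No share over pairings of other genes was worked out, and the genes were chosen with results of these arrays known. Nothing is therefore read from these counts. Without RNAi replicate 2 the shift of the class difference in RNAi against wild type was -1.04, and without RNAi replicate 1 it was -3.14.

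Replicates differed in the same direction in all members. Replicate 1 of overexpression was above replicate 2 in 7 of 7 probe sets, by 0.25 to 0.76, and replicate 1 of RNAi was above replicate 2 in 7 of 7, by 0.22 to 3.56. Among all kept probe sets the shares were 46.9% and 49.4%. The wild-type replicates differed by at most 0.56 with both signs. The SD pooled over the groups was larger for the secondary-wall members than in most probe sets of similar mean brightness. Only 0.313% of probe sets within 0.5 log2 units of its mean level had a larger pooled SD than CESA7 (1.49). For the CESA4 probe sets this share was 3.1% and 4.2%, and for the primary-wall probe sets it lay between 10.8% and 65.7%. The RNAi pair contributed most in the secondary-wall members. In CESA7 its SD was 2.52, against 0.50 in overexpression and 0.31 in wild type. In the brighter CESA4 probe set these SDs were 1.03, 0.54 and 0.03. Probe sets were matched on the mean of all 6 arrays, and the RNAi arrays of these members lay below it. The shares thus do not compare the RNAi spread with that of equally dim probe sets.

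Other CESA genes gave a look at the same classes outside the chosen members. CESA3 (LOC4343049) and CESA6 (LOC4342850) are primary-wall subunits, and CESA9 (LOC4347093) is the remaining subunit of the secondary-wall complex. CESA9 had 10.65 and 9.70 in overexpression, 6.79 and 4.63 in RNAi, and 9.23 and 9.82 in wild type. Its RNAi pair was wide, as in CESA4 and CESA7, with replicate 2 under the floor of log2 5, so that the size of its difference from RNAi is uncertain. Its overexpression and wild-type arrays overlapped. CESA6 had 11.90 and 11.01 in overexpression, 8.70 and 8.24 in RNAi, and 10.77 and 10.93 in wild type. CESA3 had 14.50 and 14.32 in overexpression, 12.05 and 10.99 in RNAi, and 13.33 and 13.34 in wild type, in the brighter of its probe sets. In both of these genes all 3 groups were clear of each other.

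Against wild type, CESA6 fell in RNAi (log2 change -2.38 ± 0.31, 5.21-fold, limma adjusted p = 0.0221, lower in 2 of 2 arrays). CESA9 and CESA3 did not pass, at log2 changes of -3.82 ± 0.66 (limma adjusted p = 0.0554) and -1.82 ± 0.31 (limma adjusted p = 0.0509). In overexpression against wild type none of the 3 passed: the log2 changes were 1.08 ± 0.31 in CESA3, 0.61 ± 0.31 in CESA6 and 0.65 ± 0.66 in CESA9 (limma adjusted p = 0.330, 0.582 and 0.774). All 3 were higher in overexpression than in RNAi (limma adjusted p = 0.00291, 0.00269 and 0.0107 for CESA3, CESA6 and CESA9). The call of CESA6 against wild type ended without either wild-type array and without RNAi replicate 2 (adjusted p = 0.200, 0.126 and 0.0688). The calls of CESA3 and CESA9 between overexpression and RNAi each held in 5 of the 6 fits that leave out 1 array.

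CESA9 minus the mean of CESA3 and CESA6, a comparison added after these values had been seen, was -2.56 and -2.97 in overexpression, -3.59 and -4.98 in RNAi, and -2.82 and -2.31 in wild type. CESA9 on RNAi replicate 2 lay under the floor of log2 5, so the value of -4.98 and the mean shift in RNAi are not interpreted. On RNAi replicate 1, where all 3 genes were above the floor, the value was below both wild-type arrays. In overexpression the difference moved by -0.19 against wild type, and the groups overlapped.

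CESA2 (LOC4334515) gave 2 conflicting readings. Probe set S2_at had 6.29 and 6.04 in overexpression, 6.41 and 6.08 in RNAi, and 6.52 and 5.48 in wild type, with all groups overlapping. Probe set S1_at had 8.12 and 7.21 in overexpression, with 4.71 and 0.85 in RNAi and 4.68 and 4.51 in wild type, all of which lie under the floor of log2 5. Neither was called in any comparison, and the lowest limma adjusted p was 0.0757, for S1_at between overexpression and RNAi.

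The lists of partners and regulators of cellulose synthesis held 34 and 21 symbols, of which 11 partner genes and 2 regulators could be named and measured. The remaining regulators, among them SWN1, SND1, MYB46 and MYB61, had no match by symbol and were not read. The measured partners were 4 COBRA-like genes, which affect the deposition of cellulose, 2 endo-1,4-beta-glucanases and 5 sucrose synthases, which release UDP-glucose. Between RNAi and wild type, 2 of 11 partners fell and 0 rose, against 0.583% of all kept probe sets called lower, with a median log2 change of -0.32, against 0.001 over all probe sets. Between overexpression and wild type 1 rose and 0 fell, against 0.346% of all called higher (median 0.56, against -0.08 over all probe sets). Between overexpression and RNAi 3 were higher and 0 lower, against 3.31% of all called higher (median 0.89, against -0.09). The regulators GAMYB and SLR1, which act in gibberellin signalling, were called in none (0 of 2 at an unadjusted limma p under 0.05), at log2 changes of -0.14 to 0.21.

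GLU2 (LOC4334029), an endo-1,4-beta-glucanase, had 13.81 and 13.62 in overexpression, 11.09 and 10.46 in RNAi, and 12.85 and 12.89 in wild type. It fell in RNAi against wild type (log2 change -2.10 ± 0.22, limma adjusted p = 0.0105) and did not pass between overexpression and wild type (0.84 ± 0.22, limma adjusted p = 0.278). The call in RNAi ended without either wild-type array (adjusted p = 0.131 and 0.0961). Its order of groups was that of the CESA members.

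BC1 (LOC4333114), a COBRA-like protein whose loss makes rice culms brittle, had 10.85 and 9.84 in overexpression, 7.70 and 6.19 in RNAi, and 9.34 and 10.08 in wild type. It was higher in overexpression than in RNAi (log2 change 3.40 ± 0.54, limma adjusted p = 0.0143), a call that held in 5 of the 6 fits that leave out 1 array. Against wild type it did not pass, at -2.76 ± 0.54 in RNAi (limma adjusted p = 0.0848). The sucrose synthase SUS1 (LOC4333062) was the partner called in all comparisons, at 12.50 and 10.87 in overexpression, 4.87 and 4.30 in RNAi, and 7.94 and 7.50 in wild type (limma adjusted p = 0.0309 for overexpression against wild type). Its RNAi arrays lay under the floor of log2 5, and its second probe set was called only between overexpression and RNAi (limma adjusted p = 0.00520). The rise of SUS1 against wild type was 8.91-fold and 27.5-fold without overexpression replicates 1 and 2, and ended without overexpression replicate 1 or either wild-type array. Its call in RNAi against wild type (limma adjusted p = 0.0481) ended without wild-type replicates 1 and 2 and without RNAi replicate 2 (adjusted p = 0.355, 0.161 and 0.141).

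**Figure D4:**
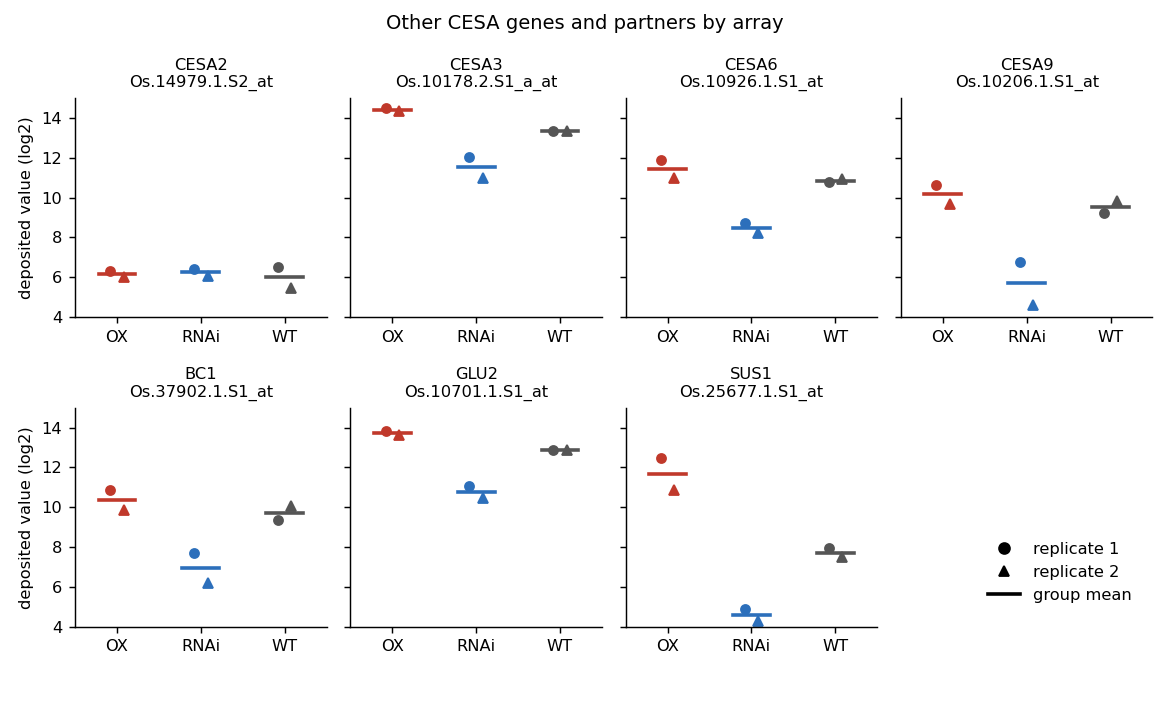
Deposited log2 value on each array for the other CESA genes and for the partners called in any comparison (BC1, GLU2, SUS1), in the brightest probe set of each gene. Symbols are as in the plot of the members; CESA9 and BC1 have overlapping OX and WT arrays and low RNAi arrays, CESA2 overlaps in all groups, and the RNAi points of SUS1 lie at 4.87 and 4.30.

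Marker lists of other cell types were read on the same arrays. Of 5 lignifying-cell genes measured, which act in the making or linking of lignin units, 4 fell in RNAi against wild type in their brightest probe set (4CL3, CAD2, LAC4 and LAC20) and 1 rose in overexpression (LAC20), where 0.583% of all kept probe sets were called lower in RNAi and 0.346% higher in overexpression. The brightest PAL probe set did not pass in RNAi (limma adjusted p = 0.256), while another PAL probe set was 6.27-fold lower and passed (limma adjusted p = 0.0381). The remaining PAL probe sets did not pass (limma adjusted p = 0.0524, 0.0692 and 0.0716). Without the intensity trend limma called 0 of all kept probe sets in overexpression against wild type and 1 in RNAi against wild type. The call of LAC20 in overexpression, and all but at most 1 of the lignifying-cell calls in RNAi, thus ended. Fits that leave out an array are not given for these genes. The summed signal of the 5 lignifying-cell genes was log2 14.95 and 14.67 in overexpression, 13.35 and 11.57 in RNAi, and 14.74 and 14.49 in wild type. This sum was lowest on RNAi replicate 2, the array on which the secondary-wall CESA genes were lowest, and LAC4 and LAC20 averaged under log2 5 in RNAi. The part of such cells in the CESA differences was not tested. Of 7 dividing-cell genes 0 were called in any comparison (limma; 1 had an unadjusted p under 0.05 for overexpression against wild type, 0 for RNAi against wild type and 1 for overexpression against RNAi). In 5 of the 7 both overexpression arrays lay above both wild-type arrays, against 17.3% of all kept probe sets. Of these, CYCB2-1, CYCB2-2, MCM5 and MCM7 reached the floor of log2 5 on the overexpression arrays only. They passed the filter through those arrays, so nothing is read from this count. The part of dividing cells in the CESA differences was not tested either. This list had summed signals of 9.98 and 9.56 in overexpression, 9.51 and 9.63 in RNAi, and 9.21 and 9.58 in wild type. Of 3 root genes 0 were called (limma; 1, 0 and 1 at an unadjusted p under 0.05 in the same comparisons), with summed signals of 9.50 and 10.20, 9.84 and 9.66, and 9.60 and 9.87 in the same order. In their brightest probe sets the 3 green-tissue genes were called in none (limma, 0 at an unadjusted p under 0.05), at log2 changes of -0.21 to 0.04. Another RBCS probe set had log2 changes of -0.85 ± 0.30 in overexpression and -0.70 ± 0.30 in RNAi against wild type. It was not called (limma adjusted p = 0.429 and 0.453, unadjusted p = 0.0220 and 0.0481). The remaining probe sets of these genes had no unadjusted limma p under 0.05.

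Genes with the most similar pattern were ranked by the root mean square difference between log2 profiles over the 6 arrays, each centred on its own mean, among 2296 named genes other than CESA genes. Nearest to the primary-wall mean were CSLF6 (LOC4344719), a synthase of mixed-linkage glucan, at 0.18 log2 units, a gene named cellulase (LOC4347685) at 0.20, VLN1 (LOC4337837), an actin-binding villin, at 0.20, the beta-tubulin OSTB-34 (LOC4326917) at 0.34, and GLU2 at 0.35. CSLF6 had 13.14 and 12.65 in overexpression, 9.63 and 8.77 in RNAi, and 11.19 and 11.26 in wild type. VLN1 lay under the floor of log2 5 in RNAi.

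Nearest to the secondary-wall mean were the kinesin KIN14H at 0.42, GER2 (LOC4344839) at 0.53, AT4 (LOC4325160) at 0.63, the auxin repressor IAA30 (LOC4352721) at 0.70 and OsSK3 (LOC4337165) at 0.73. KIN14H had 11.11 and 10.98 in overexpression, 7.75 and 5.79 in RNAi, and 10.54 and 10.41 in wild type. GER2 lay under the floor in RNAi, and AT4 on RNAi replicate 2. CESA9 was nearer still, at 0.31, and first among 2305 named genes with the CESA genes included. Its value on RNAi replicate 2, 4.63, was under the floor, so this distance and rank are uncertain. To the primary-wall mean CESA9 stood at 0.83, while CESA6 and CESA3 stood at 0.40 each. No gene was among the nearest 5 of both classes.

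**Figure D5:**
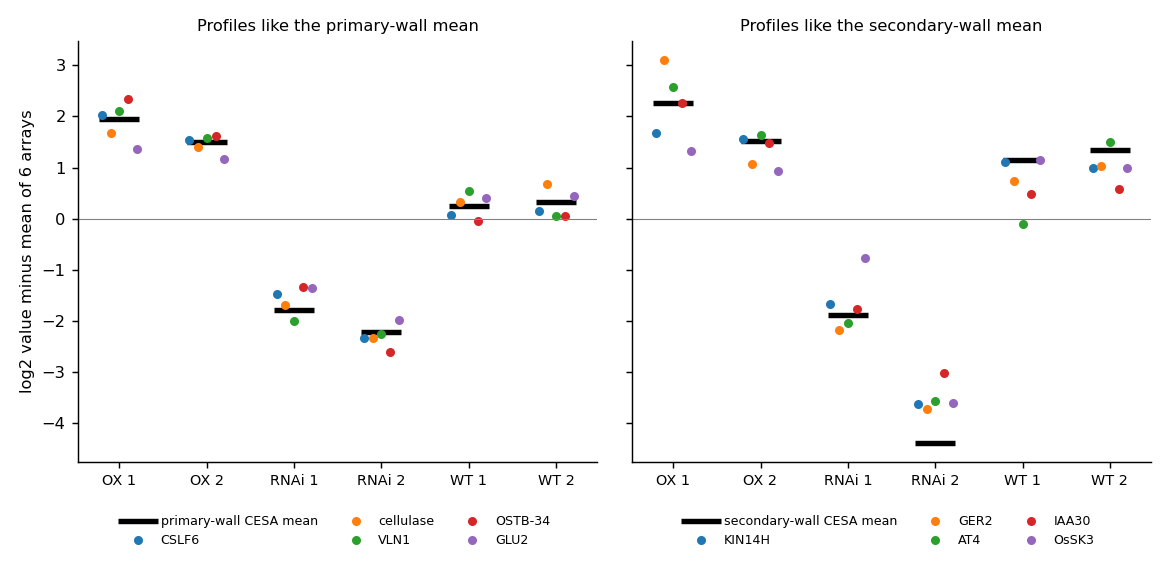
Log2 value minus the gene's mean over the 6 arrays (vertical axis) for the 5 named genes nearest to the primary-wall mean (left) and to the secondary-wall mean (right), shown as points beside the class mean as bars. The bars on the left are lowest on both RNAi arrays at similar depth, and those on the right are lowest on RNAi 2.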

How the data were processed

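The authors deposited a single table on the log2 scale with 57381 probe sets for the 6 arrays, and it was used unchanged. RMA is the tool given, per the submitters' processing notes, with no version. Exact zeros (331 to 618 per array) and unequal array distributions leave the summary and normalisation steps open, and no detection calls were used. Per the labels' protocols, biotin-labelled cRNA was made from 6 µg of total RNA. Control probe sets were removed (123 for hybridisation and labelling, 64 for reporters). Probe sets with log2 of 5 or more on at least 2 arrays were kept. Genes come from the array annotation, and symbols from RefSeq's rice genes, where each of the 17905 identifiers was present. No genome positions or sequences were used.

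Tests used limma 3.58.1 in R 4.3.3: group means over 6 arrays, 3 residual degrees of freedom, intensity trend, two-sided. The code was checked on simulated data whose spread followed brightness by construction, so that check cannot bear on the choice of the trend. The members, lists and the choice of the intensity trend were made with earlier results of these data known. Lists used the brightest probe set of each gene; list symbols without a single match were not used. Named genes are all CESA genes, called list members, and the 5 nearest profiles per class. The labels call the replicates biological without naming separate lines, so p values measure the spread between these samples. Alternatives were other filters, no intensity trend, quantile normalisation, median centring, array weights, fits of just the 2 groups in question, a block for the replicate number, averaged probe sets, and leaving out each array.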

Additional observations from a re-analysis of the deposited data

How the results depend on the processing

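Over 14 alternative settings, each of the 21 changes of the member probe sets (7 in each of 3 comparisons) kept its direction; 244 of these values stayed on the same side of the threshold, 39 lost a call and 11 gained one. Without the intensity trend 0 member probe sets and 0 of the 17 other cellulose-synthesis genes were called in any comparison (limma; at an unadjusted p under 0.05, 7 member probe sets in each comparison with RNAi and 4 in overexpression against wild type, and of the 17 genes 6 in each comparison with RNAi and 2 in overexpression against wild type). For overexpression against wild type the count of 1 called member probe set became 0 with no filter, with median centring, with array weights, with averaged probe sets and with the replicate block, and 4 when just the 4 arrays in question were fitted; it ranged from 0 to 3 over the fits that leave out 1 array. For RNAi against wild type the count of 5 ranged from 1 (without either wild-type array) to 7 (without RNAi replicate 1), and for overexpression against RNAi the count of 7 from 5 to 7. Among the other cellulose-synthesis genes, the 3 called in RNAi against wild type became 5 with median centring and 5 with the replicate block. They became 2 with a filter at log2 6, quantile normalisation, array weights, averaged probe sets and the fit of just 4 arrays. This count also moved in both directions with the array left out. The 1 called in overexpression against wild type became 2 in that fit of 4 arrays, and 0 to 2 with an array left out. The 6 called between overexpression and RNAi became 3 without overexpression replicate 1, and otherwise stayed at 6 with an array left out. The class difference, secondary minus primary, moved by -3.14 to -1.04 in RNAi against wild type, by -0.94 to -0.64 in overexpression against wild type and by 0.25 to 2.34 between overexpression and RNAi with an array left out; the other settings moved it by less than the spread between replicates. The labels link same-numbered arrays by that number alone. Their deviations correlated at 0.04, -0.03 and -0.01 across probe sets, which cannot exclude a shared step that touched a part of the probe sets. Over all probe sets the call counts of 144, 313 and 1725 (overexpression and RNAi each against wild type, then overexpression against RNAi) became 0, 1 and 5 without the trend, and 255, 141 and 1226 when just 4 arrays were fitted. The cause of these changes was not tested. Each such fit without an array takes the spread of its remaining partner from the other groups.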
